A study of Homo sapiens with 6 samples.

Results

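The APOBEC3 genes encode cytidine deaminases, enzymes that turn cytidine into uridine in single-stranded DNA. They were taken from the deposited tables by gene symbol, which gave all 7 human members, APOBEC3A, APOBEC3B, APOBEC3C, APOBEC3D, APOBEC3F, APOBEC3G and APOBEC3H, among 15977 genes listed in all. The genes lie side by side on chromosome 22. APOBEC3A, APOBEC3C and APOBEC3H proteins carry a single deaminase domain, and the others carry a pair. Several members are packaged into retroviral particles and mutate the viral DNA as it is copied, and others limit LINE-1 retrotransposons. Interferon raises many of them in blood cells, the HIV protein Vif has host cells destroy several of them, and APOBEC3A and APOBEC3B are known as sources of C-to-T mutations in tumour DNA.

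Poly(A) RNA was sequenced from HCT116, a human colorectal carcinoma line, in 6 libraries that form 3 groups of 2. WT cells are labelled both wild type and negative control, and KO1 and KO2 cells received lentiCRISPR v2, a lentivirus with Cas9 and a guide against MUC3A, a membrane mucin. Virus was used at a multiplicity of infection of 10, and cells were selected for 72 h in puromycin at 2 µg/mL. The protocol also describes a scrambled control virus, so whether WT cells had been infected is not settled here, and nothing says whether a knockout line is a clone or a pool. Each group has 1 library whose name starts with HCT and 1 with HCT116, called the HCT and HCT116 libraries below. The labels do not say what this prefix marks, nor whether the pair of libraries in a group was grown apart, so each p-value reflects the spread among these libraries alone, possibly a technical one.

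Total counts over genes listed in both tables ran from 13638724 to 17829599 per library. MUC3A itself passed the test with neither guide (log2 fold change 0.08 ± 0.18, SE, adjusted p = 0.962 in KO1 and −0.43 ± 0.19, adjusted p = 0.237 in KO2, edgeR with the library prefix as a term). In counts scaled to library size (CPM) MUC3A was at 52.7 in the HCT and 25.1 in the HCT116 library of WT. KO1 had 52.9 and 28.6, and KO2 had 30.0 and 24.6, so KO2 was clearly lower in the HCT prefix only. A cut that leaves the transcript in place need not alter its amount, so these values do not check the labels. Of 8 epithelial markers EPCAM, CDH1, KRT8, KRT18, KRT19 and CDX2 were at 14.4 CPM (counts scaled to library size) or more in every library, VIL1 was at 0.195 CPM or less, and LGALS4 was not listed. Of 12 leukocyte markers 9 were listed, and CD52 had no value in KO1. PTPRC, the pan-leukocyte antigen, was at 0 to 0.0691 CPM, and 3 markers were over 1 CPM in some library. These were CD8A (0.232 to 1.89 CPM), LYZ (0.315 to 2.01) and CD68. CD68 was at 7.55 and 8.495 for WT, 19.03 and 17.5 for KO1, then 4.66 and 11.8 for KO2. The summed level of the list was 10.8 for both WT libraries, 21.8 and 20.3 for KO1, then 8.22 and 14.2 for KO2, mostly CD68. The 6 fibroblast markers summed to 35.4 to 67.7 CPM, nearly all COL1A1. The 4 markers of the HEK293T packaging line summed to 11.5 and 23.7 for WT, 9.52 and 21.6 for KO1, then 18.8 and 30.0 for KO2, nearly all of it PAX2, which was thus read in WT too; LHX1 stood at 0 to 0.346 CPM and LIN28B at 0 to 0.586. The part of these markers in the values below was not tested.

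KO1 and KO2 cells received different guides, and both are given here. The bases nearest the PAM, which matter most for Cas9 binding, are in capitals.
KO1 guide: gaaggcaaACTTGGACGTCG
KO2 guide: ttctccacACTCCAGAGACC
No site with an NGG PAM and up to 3 mismatches was found for either guide in coding transcripts of the 7 APOBEC3 genes (GENCODE 29). The closest sites had 9 mismatches for the KO1 guide, in APOBEC3B, and 7 for the KO2 guide, in APOBEC3D.

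In WT cells APOBEC3C made up most of the family's RNA. Per length, as CPM per kilobase of the longest coding transcript in GENCODE 29, it stood at 41.5 in the HCT and 36.0 in the HCT116 library. APOBEC3B followed at 7.31 and 10.5 and APOBEC3F at 7.83 and 6.01 CPM per kilobase, and their order differed between the libraries. APOBEC3H (1.68 and 1.65 CPM per kilobase) and APOBEC3G (1.28 and 0.815) were next, and APOBEC3D was lowest of the members read, at 0.154 and 0.187. The values of neighbours in this order did not overlap except for APOBEC3B and APOBEC3F. APOBEC3A had no read in WT, which allows up to 0.195 CPM in the HCT and 0.236 CPM in the HCT116 library (3 counts, counting error only).

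The family was chosen by gene name with results of these data known, in particular the counts of APOBEC3G in KO2 against WT. Member values of KO2 against WT and of KO2 against KO1 are therefore descriptions, with no p-value, and nothing is supported with them. KO1 against WT and the comparison of the library prefixes are tested in a fit over all 12678 genes with enough reads. KO1 against WT uses the same WT libraries as the values known at the choice. Its member p-values, above all that of APOBEC3G, are therefore not independent of the choice. Of the 7 members, 5 passed that filter. APOBEC3A and APOBEC3D did not.

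**Figure D1:**
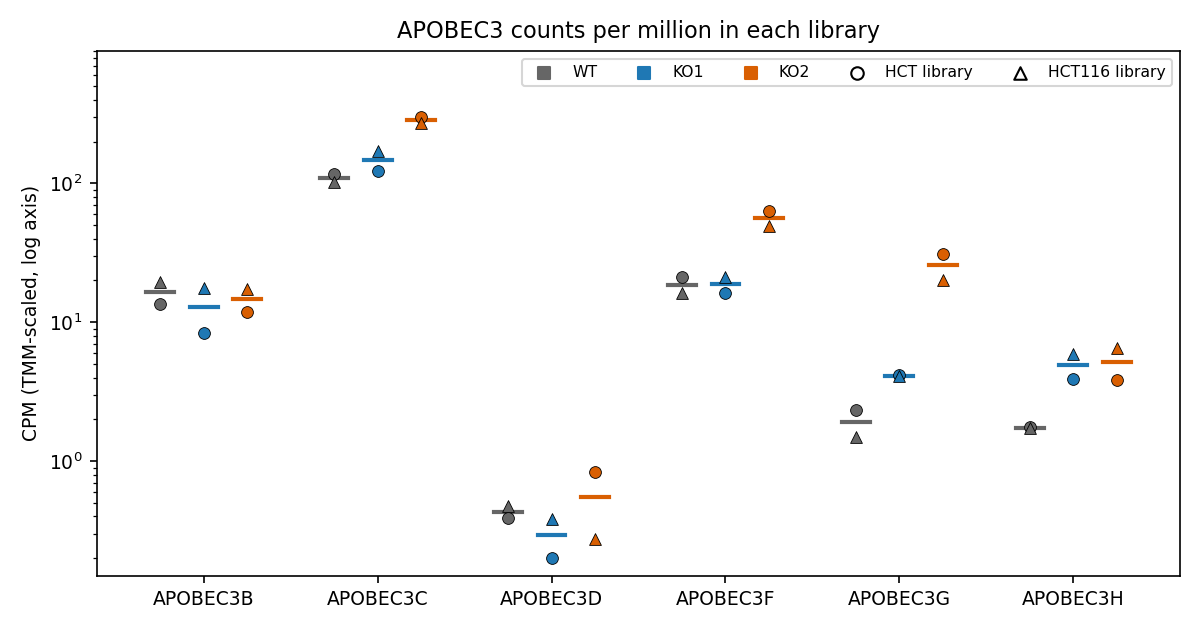
CPM on a log axis for 6 APOBEC3 genes, 1 point per library (circles HCT, triangles HCT116; grey WT, blue KO1, orange KO2) and a short line at the mean of the 2 libraries. KO2 points of APOBEC3C, APOBEC3F, APOBEC3G and APOBEC3H lie above both WT points, and those of APOBEC3B do not. APOBEC3A, with 1 read in all, is not drawn.

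APOBEC3G, the member best known for blocking HIV without Vif, differed most. It had 36 reads in the HCT and 19 in the HCT116 library of WT, 62 and 53 for KO1, then 596 and 291 for KO2. As CPM this is 2.34 and 1.495 for WT, 4.15 and 4.10 for KO1, then 31.2 and 20.1 for KO2. The 3 groups did not overlap, with WT lowest and KO2 highest.

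The fitted difference of APOBEC3G in KO2 was 13.2-fold (3.72 ± 0.26 on the log2 scale, SE over n = 2 libraries a group). Within prefix the count ratios to WT were 13.3 in the HCT libraries, with a 95% exact (Clopper-Pearson) counting interval of 9.51 to 19.2, and 13.5 in the HCT116 libraries, with an interval of 8.46 to 22.7. Both prefixes thus gave nearly the same ratio. By size of the fold change APOBEC3G ranked at 11 of 12678 tested genes among rises in KO2. Against KO1 the fitted log2 difference was 2.61 ± 0.24. Counting intervals here and below cover counting error only.

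APOBEC3F, which acts on retroviruses alongside APOBEC3G, had 324 reads in the HCT and 206 in the HCT116 library of WT, 243 and 274 for KO1, then 1201 and 716 for KO2. Its CPM were 21.1 and 16.2 for WT, 16.3 and 21.2 for KO1, then 62.9 and 49.5 for KO2. WT and KO1 overlapped and KO2 lay above both. The KO2 to WT log2 fold change was 1.59 ± 0.19, or 3.01-fold, with log2 ratios of 1.57 and 1.60 in the HCT and HCT116 libraries.

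APOBEC3C, a member with a single domain and weak activity against HIV, was the most abundant in every library. It had 1799 reads in the HCT and 1289 in the HCT116 library of WT, 1837 and 2203 for KO1, then 5750 and 3936 for KO2. In CPM these are 117 and 101, 123 and 170, and 301 and 272. KO2 lay above KO1, and KO1 above WT, although the HCT libraries of KO1 and WT were close. In KO2 the log2 fold change was 1.39 ± 0.16, or 2.62-fold, with log2 ratios of 1.36 and 1.42 by prefix.

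APOBEC3H, the last gene of the run and the most distant in sequence from the others, had 27 reads in the HCT and 22 in the HCT116 library of WT, 58 and 77 for KO1, then 73 and 95 for KO2. Its CPM were 1.76 and 1.73 for WT, 3.89 and 5.95 for KO1, then 3.82 and 6.56 for KO2. Both knockout groups lay above WT and overlapped each other. Its log2 fold change in KO2 was 1.51 ± 0.34, or 2.85-fold, and against KO1 it was 0.06 ± 0.30. Within prefix the KO2 log2 ratios were 1.06 and 1.84, so the HCT116 libraries differed more.

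APOBEC3B, a nuclear member linked to mutation in many cancers, had 207 reads in the HCT and 246 in the HCT116 library of WT, 124 and 227 for KO1, then 225 and 252 for KO2. The CPM were 13.5 and 19.3 for WT, 8.31 and 17.5 for KO1, then 11.8 and 17.4 for KO2. All 3 groups overlapped. In KO2 its log2 fold change was −0.17 ± 0.20, with log2 ratios of −0.19 and −0.15 by prefix.

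APOBEC3D and APOBEC3A were at the edge of detection. APOBEC3D, which can also enter HIV particles, had 6 reads in each WT library, 3 in the HCT and 5 in the HCT116 library of KO1, and 16 and 4 in KO2. Over both libraries its count ratio to WT was 0.672 (95% exact interval 0.238 to 1.79) in KO1 and 1.39 (0.649 to 3.13) in KO2, so a difference was not detectable at this depth. APOBEC3A, mainly known from myeloid cells, had 1 read in the HCT library of KO2 and is not listed in the table of KO1.

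**Figure D2:**
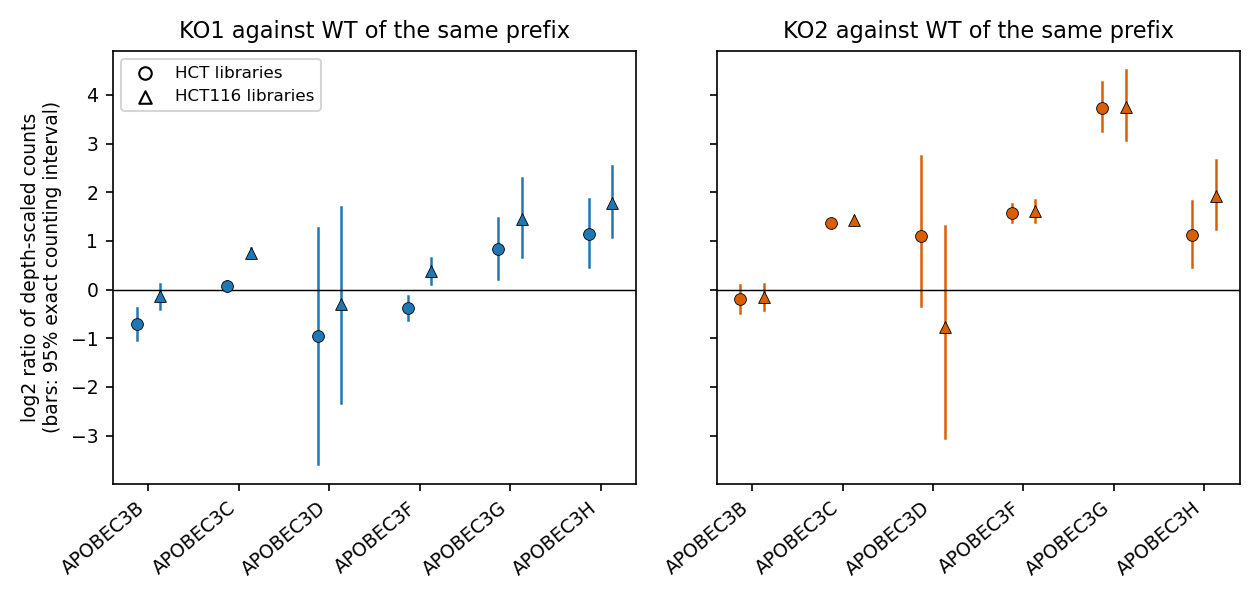
Log2 ratio of depth-scaled counts to the WT library of the same prefix for 6 APOBEC3 genes, KO1 at left and KO2 at right (circles HCT, triangles HCT116), with bars for the 95% exact counting interval. APOBEC3G in KO2 is highest, at ratios of 13.3 and 13.5 before the log. APOBEC3F in KO1 and APOBEC3D in KO2 have points on opposite sides of 0.

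With the prefix as a term, 4 of the 5 tested members were past the edgeR threshold (adjusted p of 0.05) as higher in KO2 and 0 as lower, where 2.15% of all tested genes were higher and 2.47% lower. The same 4, APOBEC3C, APOBEC3F, APOBEC3G and APOBEC3H, had both KO2 libraries above both WT libraries in CPM, which 11.9% of tested genes did. As these values led to the choice of the family, nothing is read from the counts. Without the prefix term the log2 fold changes were 1.39, 1.59, 3.73 and 1.57, and 0 genes in the table passed edgeR's test, with 309 at an unadjusted p under 0.05. APOBEC3H also fell short of the threshold without the HCT116 library of WT (log2 fold change 1.17). In the authors' deposited table the log2 fold changes in KO2 were 1.35 for APOBEC3C, 1.55 for APOBEC3F, 3.69 for APOBEC3G and 1.52 for APOBEC3H.

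KO1 was compared with WT to see whether the other guide changed the same enzymes. APOBEC3H was 2.73-fold above WT (1.45 ± 0.34 on the log2 scale, SE over n = 2 libraries a group, adjusted p = 0.0861 by edgeR) and APOBEC3G 2.16-fold (1.11 ± 0.29, adjusted p = 0.126). Neither passed the threshold, though for each both KO1 libraries lay above both WT libraries. This held for 3 of the 5 tested members, APOBEC3C with them, and for 6.86% of all tested genes. In the HCT libraries the KO1 log2 ratios were 0.79 for APOBEC3G and 1.09 for APOBEC3H, and in the HCT116 libraries 1.38 and 1.71.

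The other members differed less in KO1. APOBEC3C had a log2 fold change of 0.42 ± 0.16 (edgeR adjusted p = 0.415), from log2 ratios of 0.07 in the HCT and 0.75 in the HCT116 libraries. APOBEC3F stood at 0.01 ± 0.20 (adjusted p = 0.994) and APOBEC3B at −0.40 ± 0.20 (adjusted p = 0.658, log2 ratios −0.69 and −0.14). In all 0 of 5 tested members passed edgeR's test in KO1, against 1.03% of all tested genes. Before adjustment APOBEC3C, APOBEC3G and APOBEC3H were under 0.05, as were 8.85% of all tested genes.

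These calls moved with the libraries and genes in the fit. The HCT or the HCT116 library of KO2, which is in neither group compared, was left out first. The log2 fold changes were then 1.09 and 1.07 for APOBEC3G, 1.46 and 1.44 for APOBEC3H, and 0.41 and 0.39 for APOBEC3C. Fitted on WT and KO1 alone, edgeR gave adjusted p of 0.0410 for APOBEC3G, 0.00149 for APOBEC3H and 0.00344 for APOBEC3C. That fit called 879 genes in all, beside 130 in the main fit, so calls rose far beyond this family. Without the filter on low counts APOBEC3G (edgeR adjusted p = 0.0327) and APOBEC3H (0.0166) passed too, among 316 genes in all. As said above, member p-values in KO1 are not independent of the choice of the family. Most alternatives did not call these genes. Of 12, 8 left APOBEC3G, 8 left APOBEC3H and 9 left APOBEC3C short of the threshold. Among them were the fit without the prefix term, DESeq2 (adjusted p = 0.111 for APOBEC3G and 0.0962 for APOBEC3H) and limma-voom (0.347 and 0.114). Over all alternatives the log2 fold change ran from 0.81 to 1.44 for APOBEC3G, 1.10 to 1.82 for APOBEC3H and 0.08 to 0.73 for APOBEC3C.

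**Figure D3:**
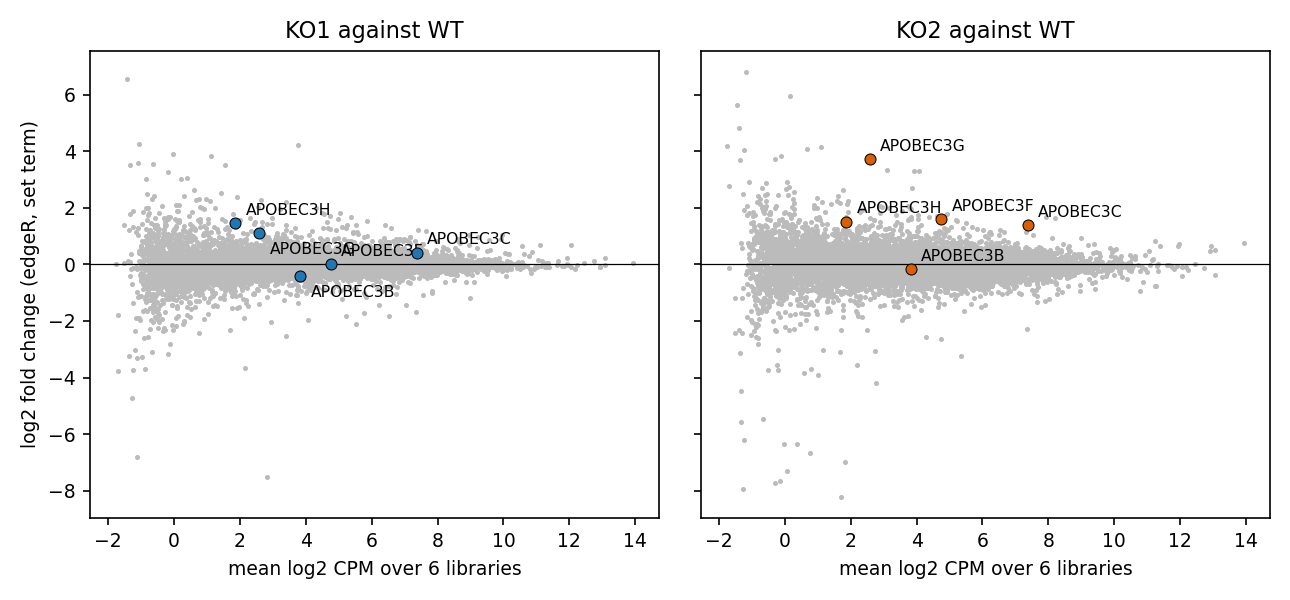
Fitted log2 fold change against mean log2 CPM for all 12678 tested genes (grey), KO1 at left and KO2 at right, with the 5 tested APOBEC3 genes in colour. In KO2 APOBEC3G stands at 3.72, APOBEC3F, APOBEC3H and APOBEC3C between 1.39 and 1.59, and APOBEC3B at −0.17.

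KO1 and KO2 share the WT libraries, so their member values are set side by side only. APOBEC3H was at a like fold in both, 2.73 and 2.85. For APOBEC3G it was 2.16 in KO1 and 13.2 in KO2, for APOBEC3F 1.01 and 3.01, and for APOBEC3C 1.34 and 2.62. KO2 directly against KO1 gave log2 differences of 2.61 ± 0.24 for APOBEC3G, 1.58 ± 0.19 for APOBEC3F, 0.97 ± 0.16 for APOBEC3C and 0.23 ± 0.20 for APOBEC3B. APOBEC3C, APOBEC3F and APOBEC3G were past the edgeR threshold there, 3 of 5, where 4.24% of tested genes were higher; this too is a description.

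As a sum over members, levels per length were 59.8 and 55.1 CPM per kilobase for WT, 60.3 and 85.9 for KO1, then 157 and 142 for KO2 (HCT and HCT116 libraries). KO2 was at 2.63 and 2.57 times the WT library of its prefix, and KO1 at 1.01 and 1.56 times. APOBEC3C held 65.3% to 72.5% of the sum in all 6 libraries. The share of APOBEC3G was 2.14% and 1.48% in the WT libraries, 3.76% and 2.60% in those of KO1, and 10.8% and 7.74% in those of KO2. The share of APOBEC3B was 12.2% and 19.03% in WT against 4.05% and 6.67% in KO2, while its CPM overlapped. APOBEC3G was the third member per length in both KO2 libraries, behind APOBEC3C and APOBEC3F, and the fifth in every WT and KO1 library.

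**Figure D4:**
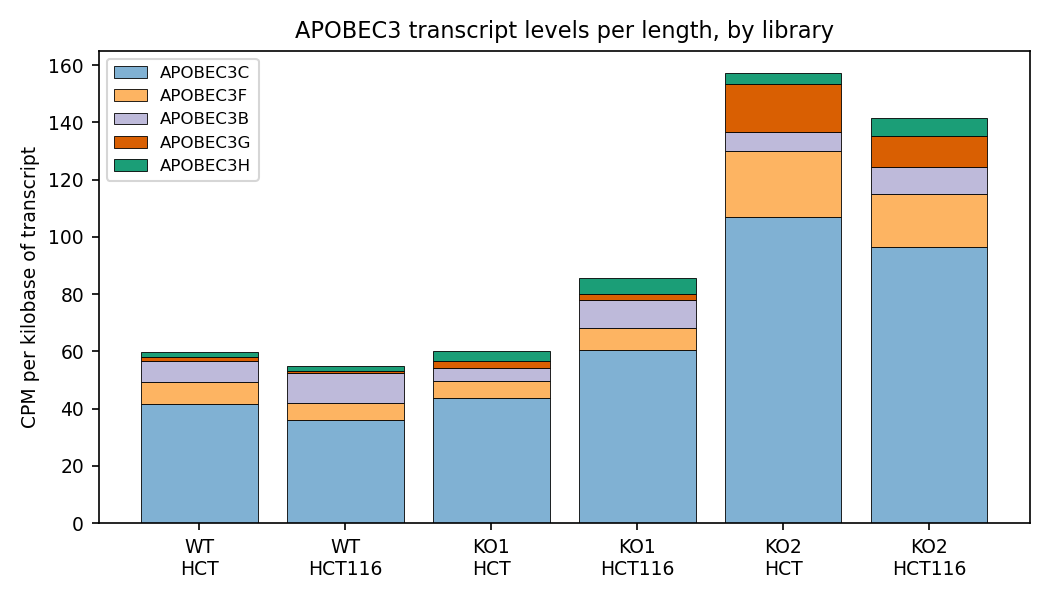
Stacked bars of CPM per kilobase for APOBEC3C, APOBEC3F, APOBEC3B, APOBEC3G and APOBEC3H in each library. APOBEC3C is the largest block in all 6, and the bars of KO2, at sums of 157 and 142, are the tallest.

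The prefixes were compared because each member was read within them. APOBEC3B was 1.64-fold higher in the HCT116 than in the HCT libraries (log2 fold change 0.71 ± 0.17, edgeR adjusted p = 0.00288, higher in 3 of 3 groups, range over alternatives 9.61e-06 to 0.0425). It was 1 of 5 tested members to pass, where 63.9% of all tested genes did. APOBEC3G was at −0.45 ± 0.20 (edgeR adjusted p = 0.0737) and APOBEC3H at 0.53 ± 0.26 (0.101). For APOBEC3G limma-voom gave an adjusted p of 0.0310, and edgeR 0.04998 and 0.0445 without the HCT or the HCT116 library of KO1. APOBEC3C (0.04 ± 0.13, adjusted p = 0.819) and APOBEC3F (−0.13 ± 0.16, adjusted p = 0.494) did not pass.

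Genes of this family resemble each other, and the sources used here do not say how reads with several matches were counted. Among coding transcripts in GENCODE 29, 38.7% of the distinct 50-base words of APOBEC3B and 31.1% of those of APOBEC3A occur in another member, mostly in one another. The share was 21.3% for APOBEC3F and 19.1% for APOBEC3G, of which 301 words are common to both, 14.8% for APOBEC3D, 1.16% for APOBEC3C and 0% for APOBEC3H. Counts of APOBEC3A, APOBEC3B, APOBEC3D, APOBEC3F and APOBEC3G are therefore uncertain to the extent that reads were split or dropped. Those of APOBEC3C and APOBEC3H rest almost wholly on words absent from the other members. Words of genes outside the family were not compared. An antisense gene, APOBEC3B-AS1, overlaps APOBEC3B, so reads of the pair cannot be told apart unless strand was used, which the sources here leave unsaid.

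Genes next to the run were read to see how far along the chromosome the differences reached. Of the 10 nearest tested genes, 5 on either side, 0 passed edgeR's test in KO1, where 1.03% of all tested genes did. In KO2 NPTXR, a neuronal pentraxin receptor, rose (log2 fold change 0.51 ± 0.12, adjusted p = 0.0407) and PDGFB, a growth factor chain, fell (−0.75 ± 0.17, adjusted p = 0.0316). Over all tested genes 2.15% were higher and 2.47% lower in KO2. PDGFB went the other way in KO1 without passing (0.67 ± 0.17, edgeR adjusted p = 0.1045). The polycomb genes CBX6 and CBX7, which flank the run, were at 0.01 ± 0.13 and 0.08 ± 0.14 in KO2, and at 0.04 ± 0.13 and 0.18 ± 0.14 in KO1. The nuclear envelope gene SUN2 (−0.08), GTPBP1 (−0.03), the dynein light chain gene DNAL4 (0.00), the ribosomal protein gene RPL3 (−0.06), SYNGR1 (0.15) and the kinase adaptor gene TAB1 (−0.28) did not pass in KO2 either. The median over the 10 neighbours was −0.02 in KO2 and 0.04 in KO1.

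**Figure D5:**
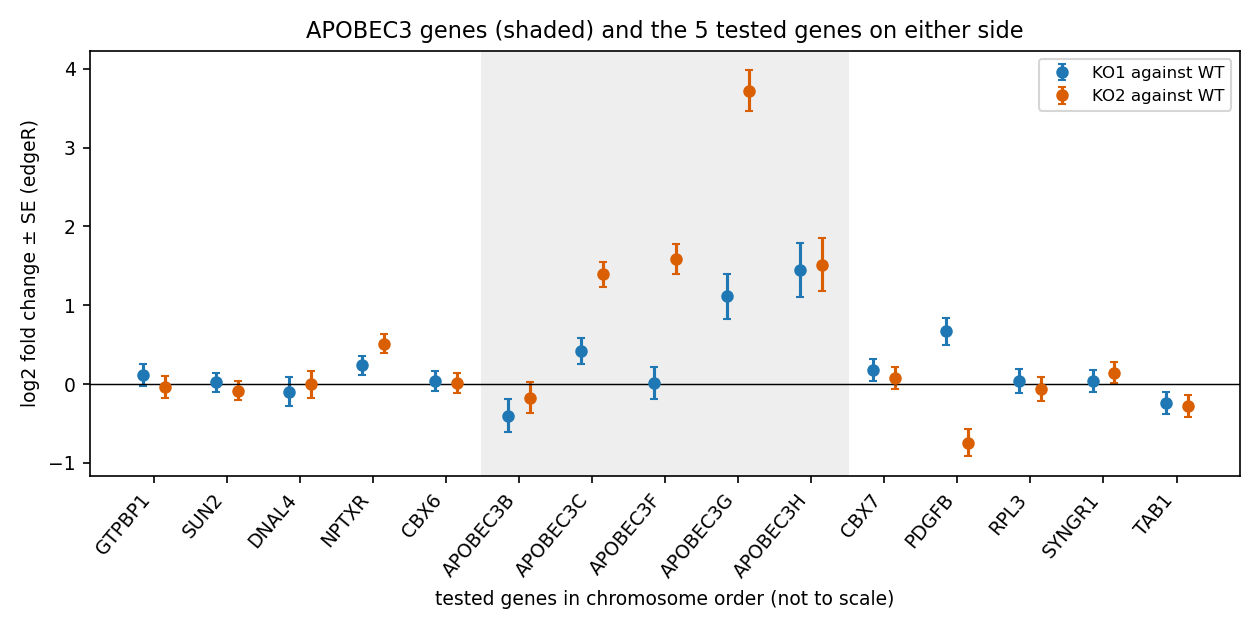
Fitted log2 fold change with its SE for the 5 tested APOBEC3 genes (shaded) and the 5 tested genes on either side, in chromosome order, KO1 in blue and KO2 in orange. APOBEC3C to APOBEC3H stand above 0 in KO2. The flanking genes lie between −0.75 and 0.51 in KO2 and between −0.24 and 0.67 in KO1.

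The promoter table of RefSeq (GRCh38.p14) was matched by 1 member, APOBEC3H, which lay above WT with both guides. Its 250 bases before the start, chr22:39096994-39097243 on the plus strand, are shown with each GAAA (or TTTC, the same on the other strand) in capitals, the core repeated in interferon response elements.
APOBEC3H promoter: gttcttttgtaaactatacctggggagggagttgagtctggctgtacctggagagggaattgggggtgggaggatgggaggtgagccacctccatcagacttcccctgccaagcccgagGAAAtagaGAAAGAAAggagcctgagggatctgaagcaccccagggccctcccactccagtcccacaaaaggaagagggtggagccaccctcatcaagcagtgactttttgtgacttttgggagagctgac
It holds 3 such cores, and 43.6% of 35116 promoters of that length hold 3 or more. On both strands it has 0 matches to GAAA, any 2 bases and GAAA again, a form of the interferon-stimulated response element found in 3.02% of these promoters. It also has 0 to TTCNNNGAA, a STAT site form found in 6.57%, and 0 to TTTGAA, a cell cycle element found in 13.3%. These letters are absent from this window, and nothing more follows from that.

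Receptors and factors of interferon signalling, which acts upstream of many APOBEC3 genes, were examined next. This list and the gene lists below were chosen with earlier results of these data known. Their counts and p-values are therefore descriptions. Of 16 tested, 3 rose and 1 fell in KO2, beside 2.15% and 2.47% of all tested genes, and 0 changed in KO1 beside 1.03%. The median log2 fold changes were 0.32 and 0.10, with 0.00 over all tested genes in both. STAT2, a transcription factor that carries the interferon signal to the nucleus, rose 1.46-fold in KO2 (edgeR adjusted p = 0.0434). SOCS1, a feedback inhibitor of JAK kinases, rose 2.33-fold (adjusted p = 0.00635), and its relative SOCS3 fell 1.91-fold (adjusted p = 0.0169).

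Other factors that restrict retroviruses and retrotransposons were counted in the same way, again as a description of a list chosen with results known. Of 24 tested, 6 rose and 0 fell in KO2, where 2.15% of all tested genes were higher and 2.47% lower. In KO1 0 changed, where 1.03% did, and the median log2 fold changes were 0.34 and 0.13. BST2, which tethers budding virus to the cell, rose 3.80-fold, from 3.25 and 3.15 CPM to 14.7 and 9.81 (edgeR adjusted p = 0.00366). C19orf66, an inhibitor of frameshifting in viral RNA, rose 1.72-fold (adjusted p = 0.0164), SLFN5 1.74-fold (0.0371) and ISG15, a ubiquitin-like modifier, 1.55-fold (0.0131). None of these calls is made without the prefix term.

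Enzymes that remove or bypass uracil in DNA, the product of deamination, were counted next. By edgeR with the prefix term 0 of 18 tested passed for either guide against WT (median log2 fold change −0.06 in KO2 and −0.03 in KO1). The same count, 0, held for 7 tested subunits and partners of the ubiquitin ligase that Vif recruits and for 16 tested regulators of APOBEC3B, such as RELB and the DREAM complex, with KO2 medians of 0.00 and −0.11. At the same threshold 2.15% of all tested genes were higher and 2.47% lower in KO2, and 1.03% passed in KO1. Nothing is read from counts of 0 in lists this short. Before adjustment 2460 of all genes in KO2 and 1122 in KO1 were at an edgeR p under 0.05. Among other APOBEC genes, APOBEC1 had 0 or 1 read and APOBEC2 0 to 4 reads per library, and APOBEC4 was not listed.

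The genes whose pattern was most like that of APOBEC3G were found over all tested genes, by the root mean square difference of the 4 log2 ratios to WT within prefix. PARP10, an ADP-ribosyltransferase, was nearest at 0.445, with log2 ratios of 3.50 and 3.11 in KO2 and 0.68 and 0.69 in KO1. APOL6, an apolipoprotein L gene, followed at 0.519, then the basal keratin KRT5 (0.699), the dehydrogenase DHRS2 (0.735) and OAS1 (0.787), which makes the oligoadenylates that switch on RNase L. APOL6, KRT5 and OAS1 were each at 0.551 CPM or less in both WT libraries. Their KO1 log2 ratios were 0.03 and 1.21 for APOL6, 0.81 and 2.74 for KRT5, and 2.08 and 1.84 for OAS1, while DHRS2 had 0.07 and 0.23. APOBEC3G itself had 3.66 and 3.64 in KO2 and 0.79 and 1.38 in KO1. The likeness rests on 6 libraries and 4 ratios that share the WT libraries, so it is a description.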

How the data were processed

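RNA was sequenced as poly(A) RNA with a NEBNext Ultra RNA library kit, per the labels' protocols. The deposited tables hold raw read counts per gene symbol and library, and the authors' log2 fold change of each guide against WT, per the file headers. Tools listed in the submitters' processing notes are STAR, HTSeq 0.6.0 and DESeq2, with hg18 as build and no role for any. Another 40 per-sample columns (normalized counts, FPKM and filtered lists) were not used, so levels per length come from the counts and the longest coding transcript, in place of the planned FPKM. WT counts are identical in the 2 tables, which share 15284 genes.

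Counts were fitted with edgeR 4.0.16 in R 4.3.3: TMM, filterByExpr by group (minimum count 10), glmQLFit and glmQLFTest on all 6 libraries, with group and library prefix as terms and 2 residual degrees of freedom, and Benjamini-Hochberg adjustment over 12678 genes at 0.05. The prefix was made a term because libraries were to be compared within prefix; columns carry no replicate number. It pairs libraries in the data: deviations from group means correlated at 0.867, 0.815 and 0.783 between groups. Log2 ratios within prefix use a prior count of 2. SE is the log2 fold change over the root of F. Chi-square per degree of freedom between libraries of a group was 81.5 to 122, so none was a copy. DESeq2 1.42.0, limma-voom 3.58.1, other scaling and filters, and leaving out each library were alternatives. The fit was also run on simulated counts with known changes and the same spread for every gene. That run checks the code only and does not bear on the calls reported here.

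Members and gene lists were chosen with earlier results of these data known. Named genes are MUC3A, the members, up to 4 called genes per list and guide comparison with the smallest p, the 10 neighbours and the 5 genes most like APOBEC3G. Some genes that this rule names are not reported here. Protein sequences were not used here, and coordinates come from RefSeq on GRCh38.p14 only.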

Additional observations from a re-analysis of the deposited data

Results flagged for a closer look

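APOBEC3F in KO1 and APOBEC3D in KO2 differed in direction between the library prefixes. The log2 ratio of KO1 to WT for APOBEC3F was −0.37 in the HCT libraries and 0.38 in the HCT116 libraries. Its counting intervals as ratios, 0.651 to 0.915 and 1.09 to 1.57, lie on opposite sides of 1. For APOBEC3D the KO2 log2 ratio was 0.89 in the HCT and −0.56 in the HCT116 libraries, from 16 and 4 reads, and both of its counting intervals include 1. With 1 library per group and prefix the difference between prefixes was not tested.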

How the results depend on the processing

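Without the replicate block on prefix edgeR called 0 genes for KO1, 0 for KO2 (each against WT) and 0 between the guides (173, 309 and 513 at an unadjusted p of 0.05), beside 130, 585 and 1220 with it. The 12 alternatives left the direction of each tested member in KO2 against WT as reported, with APOBEC3G between 3.51 and 3.89. In KO1 DESeq2 called 205 genes, the fit without a filter 316 and the fit on WT and KO1 alone 879; without the filter KO2 against WT gave 949. Leaving out 1 library gave 69 to 901 genes for KO1, 317 to 2170 for KO2 and 391 to 3202 between the guides, with a group's single library taken to vary as the rest do. Of 24 log2 ratios within prefix, 0 changed sign with a prior count of 0.5 or 5; the planned ratios from FPKM were not run. The cause of these moves was not tested.

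Values near 0 turned. APOBEC3F in KO1 was −0.0019 with DESeq2 size factors, −0.022 with limma-voom and −0.019 on WT and KO1 alone, and −0.38 to 0.38 when 1 library was left out. In KO2 against KO1 leaving out 1 library gave −0.022 to 0.51 for APOBEC3B and −0.13 to 0.25 for APOBEC3H. Between prefixes it gave −0.17 to 0.17 for APOBEC3C and −0.36 to 0.031 for APOBEC3F. Depth limits APOBEC3A and APOBEC3D, at 16 reads or fewer per library. The fits on 2 groups and without the block were not run for the comparison of prefixes.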

Other observations

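Between the library prefixes, 11 of 18 tested uracil repair genes were higher in the HCT116 libraries and 2 lower (edgeR, adjusted p of 0.05), with a median log2 fold change of 0.68, where 31.8% of all tested genes were higher and the median was −0.02. Of 24 tested restriction factors 4 were higher and 12 lower (median −0.39), and of 16 interferon signalling genes 4 were higher and 8 lower (median −0.47), where 32.1% of all tested genes were lower. Of 16 regulators of APOBEC3B, 9 were higher and 2 lower (median 0.30), where 31.8% of all tested genes were higher and 32.1% lower. APOBEC3B itself was at 0.71 ± 0.17, and a link between it and this list was not tested. The lists were chosen with earlier results of these data known, so these counts are descriptions.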
